A study of Mus musculus with 12 samples.

Results

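The xenobiotic oxidoreductases outside the Cyp1 family were followed in a mouse cell line treated with the dioxin TCDD. They are 7 genes: the aldehyde dehydrogenase Aldh3a1, the quinone reductase Nqo1, the xanthine dehydrogenase Xdh, the carbonyl reductases Cbr3 and Cbr1, the cytochrome P450 Cyp2s1 and the flavin monooxygenase Fmo2. Members were all probe sets that the platform annotation gives 1 of these symbols and no other, which made 9 of 22626 probe sets that are no controls. Fmo2 had 3 probe sets and each other gene had 1. Of the 9, 7 passed a filter on low values (a mean over all arrays of at least log2 3.98), 1 for each gene, out of 15844 tested probe sets. These 7 also lay above that value in every solvent array, where the lowest member level was 4.5, so none passed through TCDD alone. Cyp2s1 and Fmo2 were included as genes without a response, so their lack of change is a description and not a finding.

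ET cells, labelled as cortical thymic epithelium of fetal mice, were grown nearly to confluence in medium with serum. TCDD is a long-lived dioxin that activates the aryl hydrocarbon receptor (AhR). Cells received 5 nM TCDD or the solvent 1,4-dioxane at 0.05% by volume, and RNA was taken after 2, 4 or 6 h. The 12 Affymetrix arrays formed 6 groups of 2 by treatment and time. The labels of 3 arrays contradicted themselves, and titles set the groups. Both 6 h solvent arrays named 4 h in their description and protocol. The second 4 h TCDD array named the solvent in its treatment field. On that array the AhR target Cyp1a1 stood at log2 10.2, against 4.0 to 5.5 over the solvent arrays. All levels are deposited log2 values per probe set, in which a difference of 1 is a doubling.

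The AhR is a ligand-activated transcription factor that pairs with Arnt and binds short DNA elements with a GCGTG core. Besides the Cyp1 enzymes, its classical gene battery in liver holds Aldh3a1 and Nqo1, and Nqo1 is also a target of the oxidative stress factor NRF2 (gene Nfe2l2) through antioxidant response elements. Aldehyde dehydrogenases oxidise reactive aldehydes to acids. Quinone and carbonyl reductases turn quinones into hydroquinones and ketones into alcohols. P450 and flavin monooxygenases insert oxygen into foreign compounds.

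Promoter sequence is shown for 3 members, Nqo1 as a member higher with TCDD and the neighbouring paralogs Cbr3 and Cbr1, whose responses are compared below. Each is the 250 bases before the start of the gene, 5′ to 3′ on the gene's strand, from the RefSeq promoter table of build GRCm38.p6. The table gave promoters for 5 of the 7 members, not for Aldh3a1 and Xdh. The stretches are chr8:107403206-107403455 on the minus strand for Nqo1, chr16:93682969-93683218 on the plus strand for Cbr3 and chr16:93607587-93607836 on the plus strand for Cbr1. Capitals mark matches to GCGTG on either strand, so that CACGC is a match on the opposite strand.
Nqo1: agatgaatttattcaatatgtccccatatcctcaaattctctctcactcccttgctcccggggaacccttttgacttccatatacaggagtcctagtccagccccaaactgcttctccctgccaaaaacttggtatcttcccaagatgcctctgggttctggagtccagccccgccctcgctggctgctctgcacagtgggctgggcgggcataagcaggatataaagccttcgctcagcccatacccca
Cbr3: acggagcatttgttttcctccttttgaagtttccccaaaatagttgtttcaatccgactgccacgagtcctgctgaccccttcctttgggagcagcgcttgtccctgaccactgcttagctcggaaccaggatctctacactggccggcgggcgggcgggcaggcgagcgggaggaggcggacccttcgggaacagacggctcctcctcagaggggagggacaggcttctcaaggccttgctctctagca
Cbr1: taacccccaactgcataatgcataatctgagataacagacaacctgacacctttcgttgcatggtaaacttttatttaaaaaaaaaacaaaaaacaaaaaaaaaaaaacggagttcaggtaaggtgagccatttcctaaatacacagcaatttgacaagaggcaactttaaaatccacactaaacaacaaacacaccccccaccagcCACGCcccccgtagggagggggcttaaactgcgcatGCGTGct
Searched on both strands were GCGTG, the longer TNGCGTG, which contains it, and TGACNNNGC, the core of the antioxidant response element. Of the promoters of Nqo1, Cbr3, Cbr1, Cyp2s1 and Fmo2, that of Cbr1 held GCGTG, at 43 to 39 bases before the start on the opposite strand and at 7 to 3 bases before it on the gene's strand. The other 2 motifs had 0 matches in these promoters. Among 32851 promoters of the same length, 28.2% held GCGTG, 4.1% TNGCGTG and 10.2% TGACNNNGC. The matches describe these windows and say nothing about binding.

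By their values the arrays were cut into 4 clusters. The largest, of 7 arrays, is called the larger set, and the other 5 arrays together the smaller set. Both sets cut across treatment and time, with 3 TCDD arrays in each. The smaller set was no cluster of its own. It joined the second solvent and TCDD arrays of 2 h, those of 6 h and the first 4 h TCDD array, which clustered separately. The smaller set had no 4 h solvent array. The metallothionein Mt1, which binds metals, differed between the sets: its probe set 1422557_s_at lay at 7.1 to 7.4 in the larger set and at 9.6 to 10.8 in the smaller. Results are given without and with the set as a block. The sets were defined from these values, so p-values with the block can be too small. The block also gives the separate clusters of the smaller set a single common shift. Markers of the labelled cell type were partly low: 7 of 13 cortical thymic epithelial markers on the array passed the filter. Krt8, Foxn1, Dll4, Ctsl, Cxcl12, Tbata and H2-Ab1 passed, and Prss16, Ly75, Krt18, Epcam, Enpep and H2-Aa did not. Of the fibroblast and mesenchyme markers 13 of 13 passed. The filter is lenient, since 9433 of 12393 genes on the array passed it, and so did 5 of 9 thymocyte markers. The mean level of the cortical markers ran from 5.18 to 5.34 over the solvent arrays and from 5.18 to 5.35 over the TCDD arrays, and that of the fibroblast markers from 9.83 to 10.2 and from 9.32 to 10.28. In such bulk samples, fewer cells that carry an RNA and less RNA per cell cannot be told apart.

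Averaged over the 3 times, TCDD raised 2 of the 7 members, Aldh3a1 by 3.78-fold and Nqo1 by 2.32-fold, and lowered none. This compares with 15 of all 15844 tested probe sets, or 0.0947%. The members were chosen with earlier results of these data known. Their counts beside the shares of all probe sets, here and below, are therefore descriptions and no test of the group. With the array set as a block 4 members passed, Xdh and Cbr3 being added, against 46 probe sets or 0.29%. At a single time 0 members passed limma without the block, where the shares of all probe sets that passed were 0.0189% at 2 h (3), 0.0126% at 4 h (2) and 0.00631% at 6 h (1). An unadjusted p under 0.05 was reached by 4, 4 and 3 members at 2, 4 and 6 h and by 4 for the average. Over all probe sets it was reached by 236 (1.49%), 344 (2.17%) and 340 (2.15%) at those times and by 533 (3.36%) for the average. With the block, members passing numbered 1 at 2 h, 1 at 4 h and 2 at 6 h, against 0.0631%, 0.0442% and 0.0505% of all probe sets. In 3 members (Aldh3a1, Nqo1 and Xdh) all 6 TCDD arrays lay above all 6 solvent arrays. Such a separation in either direction occurred in 46 of 15844 probe sets, again 0.29%.

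**Figure D1:**
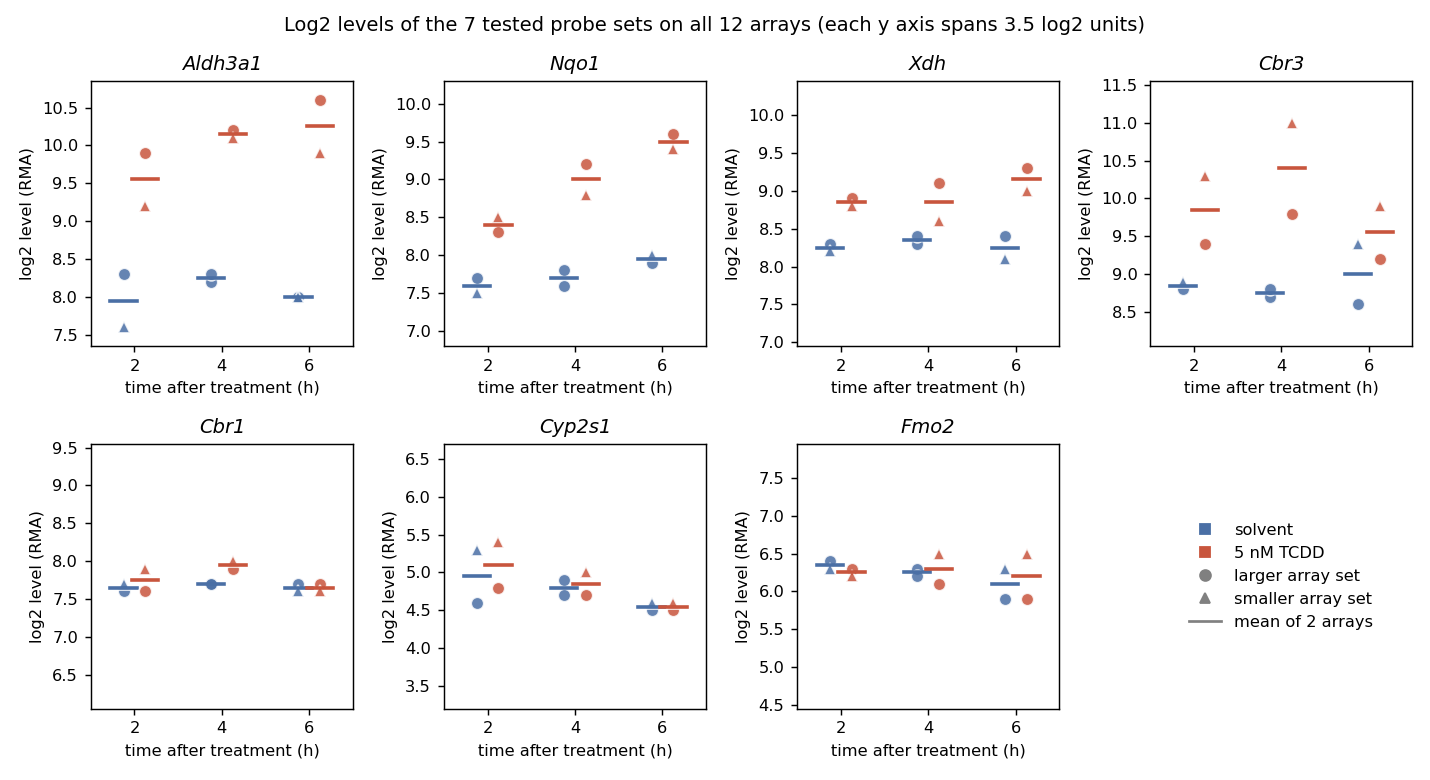
Log2 level (y axis) of the tested probe set of each member against hours of treatment (x axis) on all 12 arrays; blue is solvent, red 5 nM TCDD, circles the larger and triangles the smaller array set, and horizontal lines the mean of 2 arrays. Red points lie above all blue points for Aldh3a1, Nqo1 and Xdh, partly above them for Cbr3 and Cbr1, and overlap with them at every time for Cyp2s1 and Fmo2.

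Aldh3a1 oxidises medium-chain and aromatic aldehydes to acids. In solvent its levels (1418752_at) were 8.3 and 7.6 at 2 h, 8.2 and 8.3 at 4 h, and 8.0 and 8.0 at 6 h. With TCDD they were 9.9 and 9.2 at 2 h, 10.1 and 10.2 at 4 h, and 10.6 and 9.9 at 6 h. The lowest TCDD array thus lay 0.9 above the highest solvent array, a gap wider than the whole solvent range of 0.7. The log2 change was 1.6 ± 0.31 (SE, n = 2 against 2) at 2 h, 1.90 ± 0.31 at 4 h and 2.25 ± 0.31 at 6 h. The average was 1.92 ± 0.18 (95% interval 1.52 to 2.31, n = 6 against 6, limma adjusted p = 0.00227). The adjusted p at single times was 0.513, 0.222 and 0.141 in limma, and with the set block 0.0424, 0.0151 and 0.009, so the calls at single times came with the block. Set against all 6 solvent arrays, which mixes time with treatment, it also passed at 4 h (adjusted p = 0.0296) and 6 h (0.0201). In the larger set alone the change was 1.6 at 2 h, 1.95 at 4 h and 2.6 at 6 h. In the smaller set alone it was 1.6 at 2 h and 1.9 at 6 h. The average did not pass without variance moderation (adjusted p = 0.139) or without the 4 h time (adjusted p = 0.0636).

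Nqo1 reduces quinones to hydroquinones and so bypasses the semiquinone radical. Its solvent levels (1423627_at) were 7.7 and 7.5 at 2 h, 7.6 and 7.8 at 4 h, and 7.9 and 8.0 at 6 h. With TCDD they were 8.3 and 8.5 at 2 h, 8.8 and 9.2 at 4 h, and 9.6 and 9.4 at 6 h. No TCDD level overlapped with a solvent level, and the TCDD arrays of each later time lay above those of the earlier one. The change was 0.80 at 2 h, 1.30 at 4 h and 1.55 at 6 h (SE 0.19 each), and 1.22 ± 0.11 on average (95% interval 0.97 to 1.46, limma adjusted p = 0.00227). At single times the limma adjusted p was 0.89, 0.173 and 0.0797, and at 6 h it was 0.023 with the set block and 0.013 without either 4 h TCDD array. Set against all 6 solvent arrays, Nqo1 also passed at 4 h (limma adjusted p = 0.0296) and 6 h (0.00438). That comparison mixes time with treatment, and Nqo1 in solvent was 0.35 ± 0.19 higher at 6 h than at 2 h. The effect at 6 h exceeded that at 2 h by 0.75 ± 0.27 (95% interval 0.16 to 1.34). The F-test for any change of the effect over time gave an unadjusted p of 0.0498 for Nqo1 and a limma adjusted p of 1. No probe set in the table passed that F-test (0% of 15844, with 105 at an unadjusted p under 0.05, and again 0 with the set block).

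Xdh oxidises hypoxanthine and xanthine to uric acid and, in its oxidase form, releases reactive oxygen. Its solvent levels (1451006_at) were 8.3 and 8.2 at 2 h, 8.3 and 8.4 at 4 h, and 8.4 and 8.1 at 6 h. With TCDD they were 8.9 and 8.8 at 2 h, 8.6 and 9.1 at 4 h, and 9.3 and 9.0 at 6 h. The groups did not overlap, but the lowest TCDD level, of the first 4 h array, lay only 0.2 above the highest solvent level. The change was 0.60, 0.50 and 0.90 at 2, 4 and 6 h (SE 0.20 each) and 0.67 ± 0.12 on average, 1.59-fold (95% interval of the log2 change 0.40 to 0.93). At 4 h the change was 0.25 without the second TCDD array. The average did not pass without the block (limma adjusted p = 0.13). It passed with the set block (0.71 ± 0.09, adjusted p = 0.0127) and without the first 4 h TCDD array (0.75, adjusted p = 0.0303), and in none of the other alternatives.

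The carbonyl reductases Cbr3 and Cbr1 are close paralogs that reduce ketones and quinones with NADPH. They lie on the same chromosome with 0 protein-coding genes between them in the RefSeq table. Cbr3 (1427912_at) had solvent levels of 8.8 and 8.9 at 2 h, 8.7 and 8.8 at 4 h, and 8.6 and 9.4 at 6 h. With TCDD its levels were 9.4 and 10.3 at 2 h, 11 and 9.8 at 4 h, and 9.2 and 9.9 at 6 h. Every TCDD array lay above the solvent mean of its time (6 of 6), yet the ranges overlapped, because the second 6 h solvent array stood at 9.4 and the first 6 h TCDD array at 9.2. The change was 1.00, 1.65 and 0.55 at 2, 4 and 6 h (SE 0.44 each) and 1.07 ± 0.25 on average, 2.10-fold (95% interval of the log2 change 0.50 to 1.63, limma adjusted p = 0.443). Single arrays moved these values: at 2 h the change was 0.55 without the second TCDD array and 1.45 without the first, and at 4 h it was 1.05 without the first TCDD array and 2.25 without the second. At 6 h it ran from 0.15 without the first solvent array to 0.95 without the second, with 0.20 without the second TCDD array and 0.90 without the first. Its spread moved with the array sets. The mean of Cbr3 was 8.72 in the larger and 9.15 in the smaller set among solvent arrays, and 9.47 and 10.4 among TCDD arrays. With the set as a block the average was 0.94 ± 0.13 and passed (adjusted p = 0.0262). In the larger set alone the change was 0.6 at 2 h, 1.05 at 4 h and 0.6 at 6 h. In the smaller set alone it was 1.4 at 2 h and 0.5 at 6 h.

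Cbr1 (1460196_at) stayed in a narrow band, from 7.6 to 7.7 over the 6 solvent arrays and from 7.6 to 8.0 over the 6 TCDD arrays. Its highest levels were those of the 4 h TCDD arrays, at 8.0 and 7.9, and of the second 2 h TCDD array, at 7.9. Its average change was 0.12 ± 0.09 (95% interval -0.09 to 0.32, limma adjusted p = 1), which bounds an increase at 1.25-fold under this fit. The difference between the paralogs was tested directly, as log2 Cbr3 minus log2 Cbr1 on each array. Only the change of this difference can be read, because levels of separate probe sets are not comparable. It was 1.20 ± 0.32 (SD, n = 6) with solvent and 2.15 ± 0.53 with TCDD, an increase of 0.95 on average over the times. An exact permutation test within times gave a two-sided p of 0.0185 over 216 arrangements, of which the smallest possible p is 0.00926. Both members were chosen with earlier results of these data known, so the exact p-values here are descriptions. The arrangements also ignored the array sets, and Cbr3 was higher in the smaller set, by 0.43 with solvent and 0.93 with TCDD. At 4 h the smaller set held a TCDD array and no solvent array, so the test cannot separate treatment from array set there. Without each array in turn the increase ran from 0.767 to 1.13 and the exact p from 0.0185 to 0.0463. Within the array sets, the Cbr1 change at a single time was 0 to 0.2 against 0.5 to 1.4 for Cbr3.

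**Figure D2:**
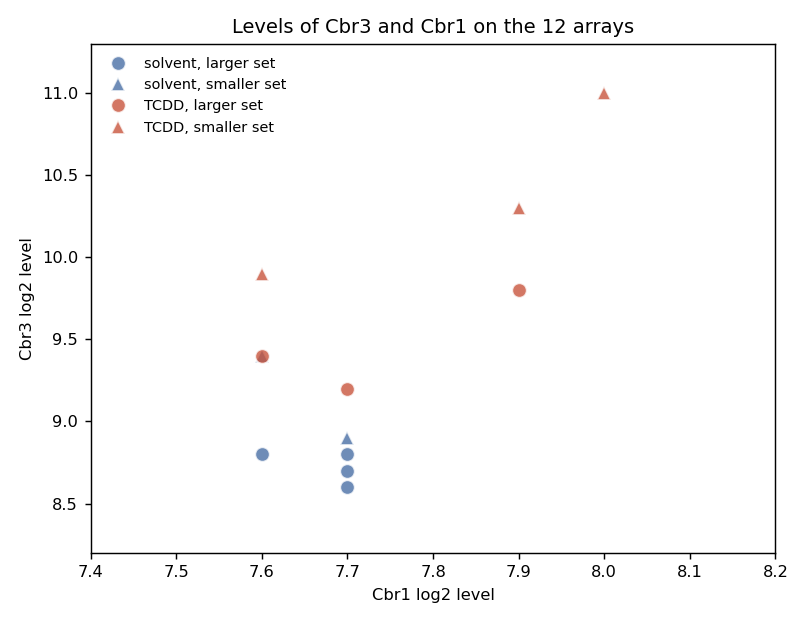
Log2 level of Cbr3 (y axis) against that of Cbr1 (x axis), 1 point per array, with solvent in blue, TCDD in red, the larger array set as circles and the smaller as triangles; 2 points coincide at 7.6 and 9.4. Cbr1 spans 7.6 to 8.0 and Cbr3 8.6 to 11, and the highest Cbr3 levels are TCDD arrays of the smaller set.

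The oxygen-inserting members gave no difference past the test in any TCDD comparison or alternative. Cyp2s1, a P450 that metabolises retinoids and is known elsewhere as dioxin-inducible, lay near the filter value (1428283_at). Its solvent levels were 4.6 and 5.3 at 2 h, 4.9 and 4.7 at 4 h, and 4.5 and 4.6 at 6 h. With TCDD they were 4.8 and 5.4 at 2 h, 5.0 and 4.7 at 4 h, and 4.5 and 4.6 at 6 h. The treatments overlapped at every time, and the spread at 2 h lay between first and second arrays in both. The average change was 0.07 ± 0.15 (95% interval -0.27 to 0.41), so an increase up to 1.33-fold lies inside the interval. Changes near background are compressed on such arrays, which limits what this level can show.

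Fmo2 oxidises nitrogen and sulfur atoms of foreign compounds and is best known from lung. Its solvent levels (1422904_at) were 6.4 and 6.3 at 2 h, 6.3 and 6.2 at 4 h, and 5.9 and 6.3 at 6 h. With TCDD they were 6.3 and 6.2 at 2 h, 6.5 and 6.1 at 4 h, and 5.9 and 6.5 at 6 h. The treatments again overlapped at every time, and the average change was 0.02 ± 0.13 (95% interval -0.28 to 0.32). The other Fmo2 probe sets, 1422905_s_at and 1454005_at, had mean levels of 3.19 and 2.85, below the filter, and were not tested. A promoter match to the searched motifs was found for neither Cyp2s1 nor Fmo2, which says only that the letters are not in these windows.

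**Figure D3:**
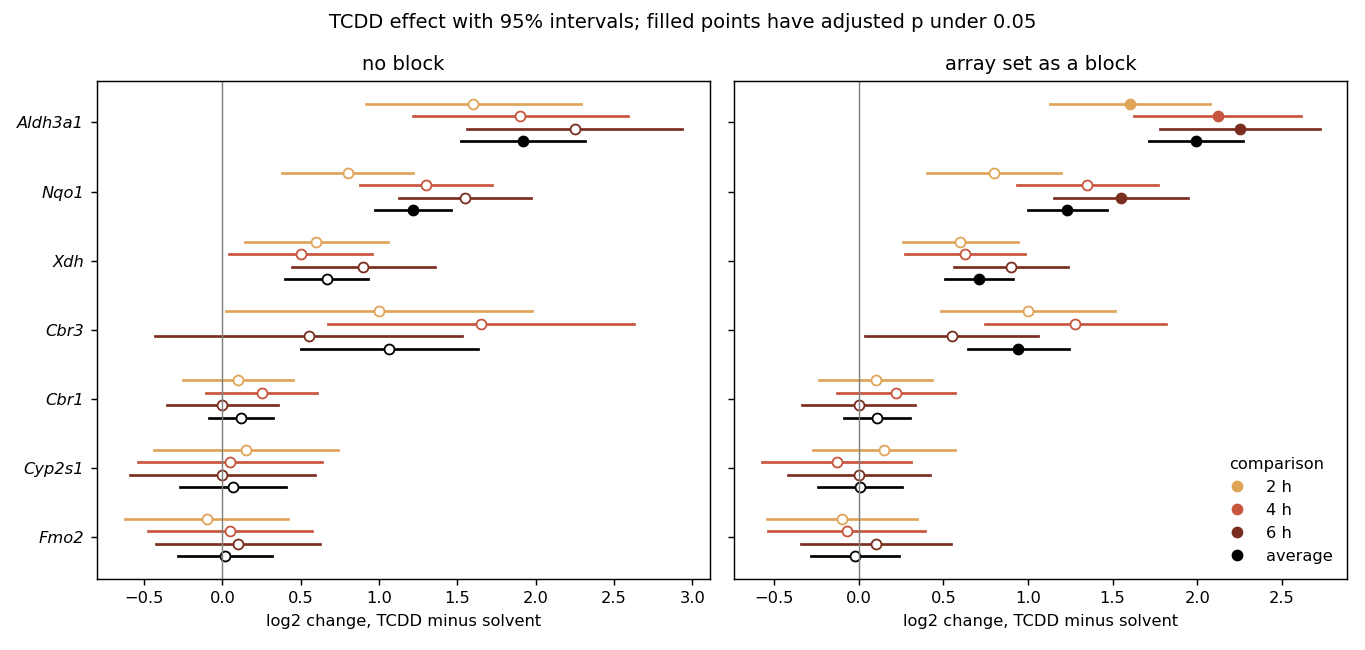
Log2 change, TCDD minus solvent (x axis), of each member (y axis) at 2, 4 and 6 h and on average, with 95% intervals, without a block (left) and with the array set as a block (right); filled points have an adjusted p under 0.05. On the left the averages of Aldh3a1 and Nqo1 are filled; on the right 4 averages, Aldh3a1 at all 3 times and Nqo1 at 6 h are filled.

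In solvent, no member passed the test between times, and 0 had an unadjusted p under 0.05. Solvent at 4 h against 2 h gave changes of -0.15 to 0.30 over the 7 members, and solvent at 6 h against 2 h gave -0.40 (Cyp2s1) to 0.35 (Nqo1). In both comparisons 0% of all probe sets passed limma, with 286 and 447 at an unadjusted p under 0.05, and the set block also gave 0 in each.

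Levels of Aldh3a1, Nqo1 and Xdh moved together over the 12 arrays, with Pearson correlations of 0.92 (Aldh3a1 and Nqo1), 0.92 (Aldh3a1 and Xdh) and 0.90 (Nqo1 and Xdh), whereas Cbr3 gave 0.64, 0.59 and 0.41 with them. All points share the treatment contrast and the array sets, so these are descriptions. Taking out group means leaves 1 independent deviation per group. In every group but solvent at 4 h this deviation lay between an array of the larger and an array of the smaller set. Deviations of members can therefore not be told apart from the array sets. Xdh and Cbr3 deviated in opposite directions (-0.91). This was the strongest such correlation of any member pair and not particular to it. Xdh with Fmo2 gave -0.86 and Aldh3a1 with Cyp2s1 -0.84. Each member was also set beside the 3 probe sets of other genes with the highest Pearson correlation over the 12 arrays. For Aldh3a1 these were Cpox (0.941), an enzyme of haem synthesis, the transcription factor Creb3l1 (0.937) and Cyp1a1 (0.923). For Nqo1 they were the alcohol dehydrogenase Adh7 (0.929), Aldh3a1 (0.915) and Cldnd1 (0.91), and for Xdh they were Cldnd1 (0.96), Cyp1b1 (0.958) and Adh7 (0.943), with other probe sets of Cldnd1 and Adh7. Cbr3 had none of these, and its 3 were Ecsit (0.969), Cndp2 (0.959) and Gfer (0.945). Those of Cbr1 (Cdk7, Idnk and Wwox), Cyp2s1 (Brd1, Hid1 and Il1rap) and Fmo2 (Rd3, Gng3 and Krt36) had average changes of 0.02 to 0.17 with TCDD, and none passed. Of the genes most like the members, Cpox, Creb3l1, Cyp1a1 and Cyp1b1 passed the average test in the probe set that gave the correlation, with log2 changes of 2.25, 1.38, 5.83 and 1.70 (limma adjusted p = 0.000564, 0.00313, 1.4e-05 and 0.0321). These genes were picked for following Aldh3a1 or Xdh over the same arrays. Their difference with TCDD was thus largely fixed by that choice and is no separate support. The choice of likest genes also depended on the measure. By Spearman correlation 0 of the 3 were the same for Aldh3a1 and for Nqo1, 1 for Cyp2s1 and 2 for each other member.

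Related enzymes were read from lists chosen with earlier results of these data known, and among all 9433 tested genes (members included) 9 were higher, 0 lower and the median log2 change was -0.02 on average over the times. Of the AhR battery and its feedback genes, 6 of 13 were tested and 2 rose. Cyp1a1, the P450 best known as an AhR target, ran from 4.0 to 5.5 in solvent and from 9.3 to 11.1 with TCDD, 57-fold higher (limma adjusted p = 1.4e-05). Tiparp, a feedback repressor of the AhR, ran from 4.5 to 6.1 and from 6.8 to 9.2, a 9.51-fold rise (limma adjusted p = 0.00313). The probe set of Cyp1b1 with the highest level changed by 1.40 ± 0.23 and Nfe2l2 by 1.22 ± 0.21 (limma adjusted p = 0.0973 and 0.124), and with the set block Cyp1b1 also passed. The median of this list was 1.31.

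No relative of the members in the other 8 lists passed limma, and the list medians ran from -0.07 to 0.23. An unadjusted p under 0.05 was reached by 0 of the other aldehyde dehydrogenases tested, 1 of the other reductases, 1 of the P450 list, 1 of the flavin enzymes and 1 of the molybdenum and purine list, and by 328 of all 9433 tested genes (3.48%). Of other aldehyde dehydrogenases, 13 of 19 were tested and 0 passed (median -0.07), with Aldh3a2 at 0.23 ± 0.12 and Aldh1a1 at -0.28 ± 0.23. Of other carbonyl, quinone and aldo-keto reductases, 23 of 31 were tested and 0 passed (median 0), with the steroid-metabolising Akr1c14 at 0.77 ± 0.35 and Dhrs7 at 0.47 ± 0.14. Of P450 enzymes outside family 1 and their redox partners, 20 of 58 were tested and 0 passed (median 0.03), the most changed being Cyp4v3 at -0.33 ± 0.14 and Cyp2c55 at 0.27 ± 0.19. Only 2 of 8 flavin enzymes were tested, Smox, which oxidises spermine, at 0.57 ± 0.20 and the monoamine oxidase Maoa at -0.10 ± 0.09, and neither passed. Of molybdenum enzymes and purine catabolism 13 of 18 were tested and 0 passed (median 0.03), with the aldehyde oxidase Aox1 at -0.35 ± 0.17 and the purine phosphorylase Pnp at -0.27 ± 0.12.

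Among genes of the NRF2 antioxidant response, 17 of 23 were tested and 0 passed (median 0.17). The haem oxygenase Hmox1 was at 0.48 ± 0.52 and Gclm, a subunit of the enzyme that starts glutathione synthesis, at 0.42 ± 0.24. Hmox1 ran from 7.4 to 10.2 over the solvent arrays. Of conjugating enzymes, 21 of 42 were tested and 0 passed (median 0), with the glutathione transferases Gstm1 at 0.38 ± 0.14 and Gstm2 at 0.35 ± 0.10. Of the metallothioneins, which marked the array sets, 3 of 4 were tested and 0 passed, with Mt1 at 0.25 ± 0.89 and Mt2 at 0.23 ± 0.93. An unadjusted p under 0.05 was reached by 0 of 17, 2 of 21 and 0 of 3 genes of the NRF2, conjugating and metallothionein lists, beside the 3.48% of all tested genes. With the set block as well, 0 genes of these 8 lists passed on average. A miss of the threshold at 2 arrays per group does not show that a gene was unchanged.

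**Figure D4:**
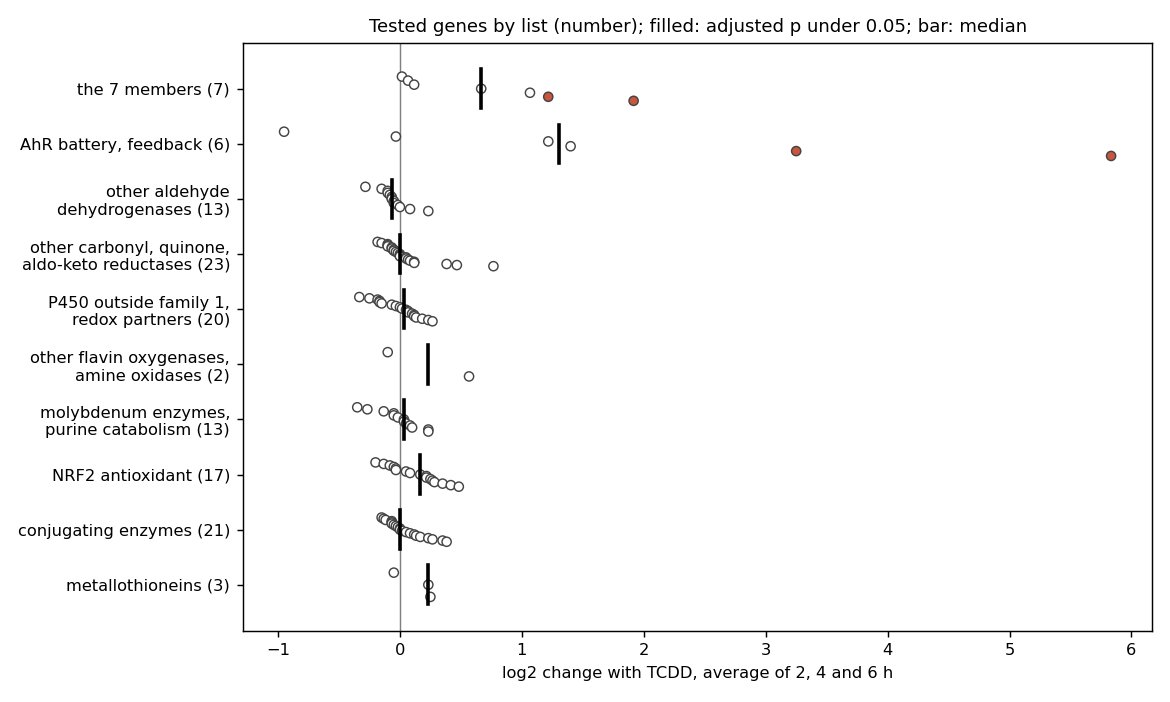
Average log2 change with TCDD over the 3 times (x axis) of each tested gene in the members and in the 9 lists (y axis, number tested in brackets), 1 point per gene, filled where the adjusted p was under 0.05, with the median as a bar. The filled points are Aldh3a1, Nqo1, Cyp1a1 and Tiparp, and the medians of the 8 lists after the AhR battery lie between -0.07 and 0.23.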

How the data were processed

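RNA of 12 samples was measured on Affymetrix mouse arrays. The authors deposited 1 log2 value for each probe set and array. Per the submitters' processing notes these are RMA values (background subtraction, equalised array distributions and summary over probes). The version and the software are not given in the sources used here. The deposited values have 1 decimal and every array has a median of 5.1, which hides any shift common to all genes. Depth does not apply to arrays, and their number, 2 per group, limits the precision. The design text names biological duplicates without the step repeated, so p-values reflect only how these arrays spread, which may be technical. Value columns not used numbered 0.

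The table held 22690 probe sets, and its 64 controls were dropped. Of the rest, 20380 had 1 gene symbol, 691 several and 1555 none, and 20351 matched RefSeq (GRCm38.p6) by gene identifier, with 0 symbols changed. The filter kept probe sets whose mean reached the 30th percentile (log2 3.98). The limma package (3.58.1, R 4.3.3) fitted group means over all 12 arrays (6 residual degrees of freedom, prior 3.81, prior SD 0.218). Tests were two-sided. Each comparison had its own Benjamini-Hochberg adjustment over 15844 probe sets, with 0.05 as the threshold. The script was checked on simulated data. Array sets came from complete linkage of the arrays, cut into 4 clusters, the largest against the others.

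Deviations from group means of same-numbered arrays of a time correlated at 0.365 at 2 h, 0.159 at 4 h and 0.705 at 6 h. A fit that paired arrays by number within a time was therefore run as an alternative. The main fit, which gave the results above where no block is named, was unpaired. The array numbers come from the titles, but treating equal numbers as pairs rests on the values and not on the labels. Members and gene lists were chosen with earlier results of these data known. Named were all members, genes of each list past a TCDD test and the 2 largest changes among its others, and the 3 genes most like each member. The probe set with the highest mean stood for a gene. Alternatives were other filters, variance settings, scaling, array selections, solvent arrays and blocks.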

Additional observations from a re-analysis of the deposited data

Results flagged for a closer look

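The Fmo2 probe sets below the filter value of log2 3.98 moved in opposite directions at different times. For 1422905_s_at, TCDD minus solvent was -0.40 at 2 h, 0.15 at 4 h and 0.10 at 6 h, so that the later effects exceeded that at 2 h by 0.55 and 0.50. For 1454005_at it was -0.30 at 2 h and 0.10 at 4 h, a difference of 0.40. In these cases every array of the earlier time lay on one side of the solvent mean and every array of the later time on the other. The differences were not tested, since both probe sets lay below the filter.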

How the results depend on the processing

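On average over the times, 2 members passed, but 1 without variance moderation, 1 without the 4 h time and 4 with the array set as a block. Over fits that left out 1 array each it was 2 to 3, with 3 (Xdh added) without the first 4 h TCDD array. At 2 h the count went from 0 to 1 with the set block. At 4 h it went from 0 to 1 with that block and to 2 against the solvent arrays of all times. At 6 h it went from 0 to 2 with the set block, to 2 with the solvent arrays of 4 h and 6 h pooled and to 2 against the solvent arrays of all times, and from 0 to 1 over fits that left out 1 array each. No direction that had passed was turned in the alternatives run. With the replicate block within each time, members passing numbered 0 at each time and 2 on average, and all probe sets passing numbered 1, 1, 1 and 16 against 3, 2, 1 and 15 without it, so the paired fit changed no member's call. Over 21 to 24 alternatives, all probe sets passing ranged from 0 to 10 at 2 h, 0 to 59 at 4 h, 0 to 13 at 6 h and 6 to 46 on average. Aldh3a1 passed on average in 19 of 21 alternatives, Nqo1 in 21, Xdh in 2 and Cbr3 in 1. Cyclic loess scaling moved the median of all genes by at most 0.05. Cyp2s1 was not tested at the 50th percentile filter. The causes of these changes were not tested.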
